A study of Mus musculus with 35 samples.

Results

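Trp53, the gene of the tumor suppressor p53, and 8 genes that p53 is known to activate (Mdm2, Ccng1, Phlda3, Zmat3, Eda2r, Trp53inp1, Aen and Sesn2) were followed through an RNA-seq series on the leukemia fusion protein NUP98-HOXA9. They were the rows of the count table that carry these 9 symbols, out of 49671 genes in all, and all 9 passed the filter on low counts, which kept 17166 genes. Lin- HSPCs, which are blood stem and progenitor cells left when bone marrow is depleted of cells with mature lineage markers, came from male and female C57Bl/6 mice. They received a lentivirus, were sorted for its fluorescent marker and grew for 1 week in Methocult M3434, a semi-solid medium with cytokines, to which 10 ng/mL GM-CSF was added. There were 7 groups of 5 libraries, numbered 1 to 5 in each. Empty carried the empty vector. G-NHX9 carried mEGFP-tagged full-length NUP98-HOXA9, in which the phenylalanine-glycine (FG) repeats of a nucleoporin are joined to the homeodomain of HOXA9. G-NHX9-8FA and G-NHX9-21FGAA carried the same fusion with FG motifs mutated, the latter the more extensive change. G-NHX9-midi kept only the C-terminal part of the FG region, without the GLEBS domain, and G-NHX9-midi-21FGAA added the 21FGAA mutations to it. G-NHX9-DDNA carried full-length NUP98-HOXA9 with a homeodomain mutated to weaken its binding to DNA. Mouse age on the labels was 8 weeks except for Empty 4 (9 weeks), Empty 5 (10 weeks) and G-NHX9 1 (11 weeks). Empty cells were sorted for mCherry and the others for mCherry and mEGFP, so the gate differed between Empty and the constructs. In these bulk cultures fewer cells of a type and less RNA per cell cannot be told apart. The labels do not say whether libraries of different numbers came from separate mice, so p-values measure the spread between these libraries, which may be technical in part. The methods of the study name fewer transductions per virus than there are labelled libraries, and how these relate is not stated.

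p53 is a transcription factor that is held low in unstressed cells by Mdm2, the ubiquitin ligase that marks it for degradation and is itself induced by p53, which closes a feedback loop. Most control of p53 acts on the protein, so the mRNA of Trp53 is not a measure of p53 activity, and the mRNAs of its targets are the usual readout. In hematopoietic cells p53 is known for holding stem cells in quiescence and for removing or arresting cells with damaged DNA. Its targets act at different points: Ccng1 (cyclin G1) works with Mdm2 in the feedback, Trp53inp1 and Zmat3 (an RNA-binding protein) take part in arrest and cell death, Aen is a nuclease of apoptosis, Phlda3 is an inhibitor of the kinase AKT, Eda2r is a death receptor of the TNF receptor family, and Sesn2 (sestrin 2) is a stress protein that restrains mTORC1 and is also a target of the integrated stress response.

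The p53 response element, the site that p53 reads, is made of 2 copies of a decamer. RefSeq promoter windows of 300 bases (250 before and 50 after the start site, GRCm38.p6) were given for 7 of the 9 genes. Zmat3 and Trp53inp1 are named only. Windows were searched on both strands for the consensus decamer with its central C and G kept, and for adjacent decamers with up to 3 mismatches in total. The matches are shown to let the genes be compared at sequences like this consensus, with capitals marking the match and 5 bases on either side, on the strand of the gene. They are matches of letters only, and binding of p53 to them was not measured.
Ccng1: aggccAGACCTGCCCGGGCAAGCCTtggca
Aen: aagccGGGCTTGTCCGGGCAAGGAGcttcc
Trp53: cggaaGGACTTGCCCTTACTTGTTAtggcg
Mdm2: gatagGAACTTGCCTagcga
The printed stretch of Ccng1, 5 flanking bases on each side included, was chr11:40755457-40755486 on the minus strand, and its pair had 1 mismatch and lay from position -195 to -176 of the start site (position 0). The Aen stretch was chr7:78895932-78895961 on the plus strand, and its pair had 3 mismatches and lay from 10 to 29 of one RefSeq start and from -121 to -102 of another. For Trp53 the stretch was chr11:69580279-69580308 on the plus strand, and its pair had 3 mismatches and lay from -75 to -56. The Mdm2 window held a single exact decamer from -186 to -177, in the stretch chr10:117710930-117710949 on the minus strand. Among 32851 windows of this length, 8.36% held an exact decamer, 1.38% an adjacent pair with up to 3 mismatches and 0.067% a pair with up to 1 mismatch. No match was found in the windows of Phlda3, Sesn2 and Eda2r, which says only that these letters are not in those windows.

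The libraries held 31559914 to 75810659 counted reads. Ptprc, the common leukocyte antigen CD45, was at 412 to 1060 CPM (reads scaled to the library's total by the TMM method) in all 35 libraries, while Cd3e of T cells stayed at or below 0.205 CPM. Kit, which marks the progenitors that were plated, was at 30.3 to 345 CPM after the week of culture. Marker genes of mature cells were not equal between groups. Summed over 11 erythroid genes the level was 301 to 839 CPM in Empty, 112 to 154 in G-NHX9-8FA, 138 to 200 in G-NHX9-midi and 554 to 2090 in G-NHX9-21FGAA. The sum over 8 mast cell and basophil genes was 1080 to 3050 CPM in Empty, 626 to 920 in G-NHX9 and 467 to 863 in G-NHX9-midi.

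Per kilobase of exon, Ccng1 was the most abundant member in Empty, at 109 ± 22.1 CPM per kb (SD, n = 5 here and throughout). Mdm2 followed at 27.3 ± 5.33, Phlda3 at 21.2 ± 2.73, Trp53inp1 at 19.5 ± 3.35 and Sesn2 at 17.5 ± 2.46 CPM per kb, and the last 3 lay within an SD of the next. Lower stood Trp53 at 6.28 ± 1.66, Zmat3 at 4.49 ± 2.03 and Aen at 3.73 ± 0.522, where Zmat3 did not differ from either beyond its spread, and Eda2r, the death receptor, was lowest at 0.341 ± 0.0502 CPM per kb. Eda2r rested on 36 to 337 reads per library and Phlda3, the next lowest in reads, on 327 to 1894. All levels below are CPM, which compare a gene between libraries but not one gene with another.

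**Figure D1:**
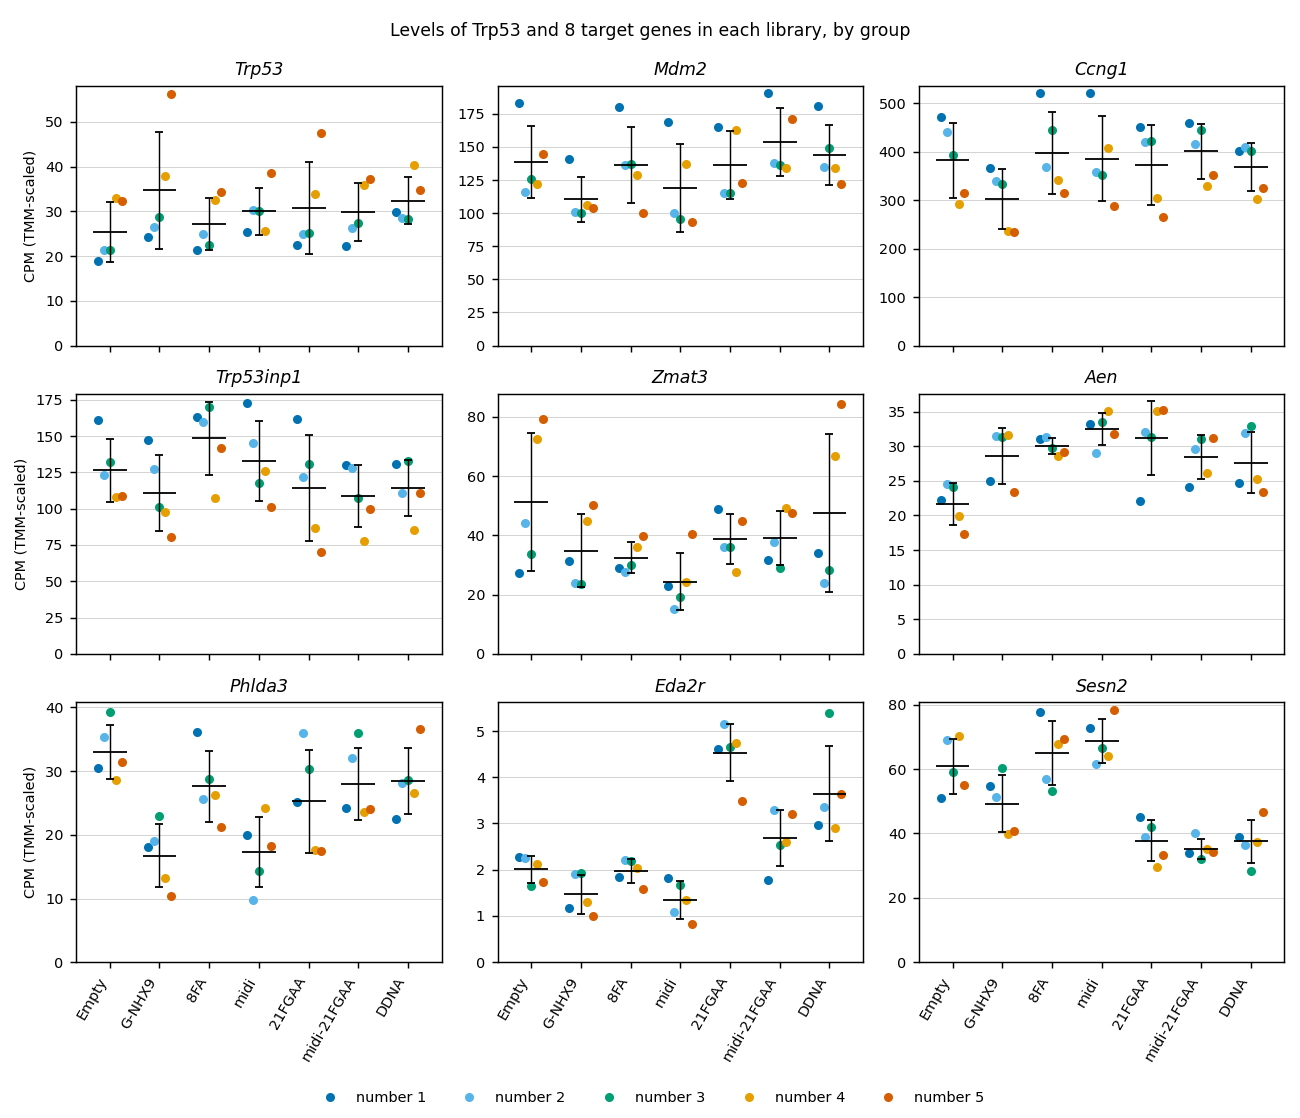
Level of each of the 9 genes in every library (CPM, TMM-scaled, linear axis from 0) by group, with the construct names shortened to what follows G-NHX9. Each point is 1 library colored by its number, the bar is the group mean and the whiskers are the SD (n = 5). Eda2r stood above 2.9 CPM in all G-NHX9-21FGAA libraries and Sesn2 at or below 46.7 CPM in the 3 groups on the right, while the points of Trp53 and Ccng1 sorted by number in most groups.

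Each construct was first compared with Empty, which asks how the fusion and its mutants moved the p53 genes. The 6 comparisons share the Empty libraries and are not independent. A gene was called where the p of edgeR's quasi-likelihood test, adjusted over all 17166 genes (Benjamini-Hochberg), was below 0.05, and fold changes are log2 with their SE. G-NHX9 changed 2 of the 9 genes, Aen upward and Phlda3 downward, in a comparison that called 32.1% of all genes (16.9% higher and 15.2% lower). G-NHX9-8FA changed Aen alone, upward, where 26.6% of all genes were called (13.4% higher and 13.2% lower). G-NHX9-midi changed 4, Aen upward and Phlda3, Zmat3 and Eda2r downward, where 40.5% were called (20.5% and 20%). G-NHX9-21FGAA changed 3, Aen and Eda2r upward and Sesn2 downward, where 27.1% were called (14.7% and 12.5%). G-NHX9-midi-21FGAA changed 2, Aen upward and Sesn2 downward, where 16.9% were called (9.59% and 7.32%). G-NHX9-DDNA changed 3, Aen and Eda2r upward and Sesn2 downward, where 17.2% were called (9.85% and 7.35%). With 9 genes such counts do not set the members apart from all genes. Nor did the members move in 1 direction: their median log2 fold change was -0.33 for G-NHX9, 0.06 for G-NHX9-8FA, 0.01 for G-NHX9-midi, -0.04 for G-NHX9-21FGAA, 0.07 for G-NHX9-midi-21FGAA and -0.06 for G-NHX9-DDNA, beside medians over all genes from -0.02 to 0.03. The numbers paired the libraries of Empty with those of G-NHX9, G-NHX9-midi-21FGAA and G-NHX9-DDNA. With the number added to the fit as a block, 6, 2 and 4 of the 9 were called there. For G-NHX9 these were Trp53 and Aen upward and Mdm2, Ccng1, Phlda3 and Zmat3 downward. The shares over all genes given above are without the block, so these counts do not set the members apart from all genes.

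**Figure D2:**
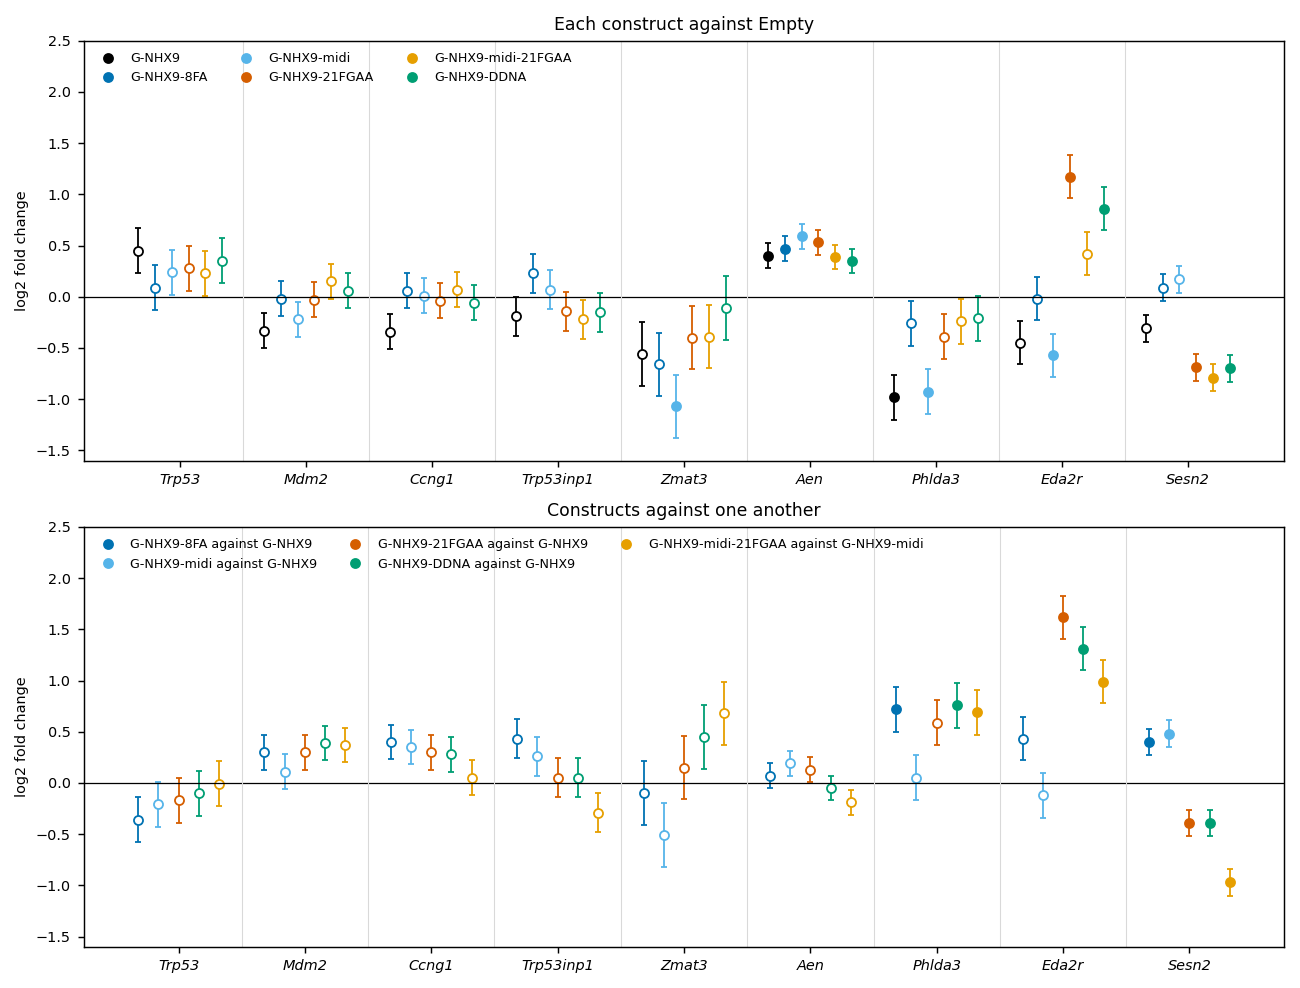
Log2 fold change of the 9 genes with its SE, for each construct against Empty (upper panel) and for constructs against one another (lower panel). Filled points passed an adjusted p of 0.05 (edgeR) and open points did not. Aen is filled in every comparison with Empty, Phlda3 in 2, Eda2r in 3 and Sesn2 in 3.

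Trp53 itself (ENSMUSG00000059552.13, chromosome 11, 69580359 to 69591873, plus strand, GRCm38) passed the test in none of the 11 comparisons without the number as a block, with adjusted p from 0.11 to 0.98. In Empty it stood at 19, 21.3, 21.3, 33 and 32.4 CPM in libraries 1 to 5. In G-NHX9 the values were 24.2, 26.5, 28.8, 38 and 56.2 CPM. Both groups were high in the libraries numbered 4 and 5, and they overlapped. The log2 fold change of G-NHX9 against Empty was 0.45 ± 0.22 (adjusted p = 0.11), although G-NHX9 was the higher in 5 of the 5 pairs of libraries with the same number. This is a comparison in which the numbers paired the libraries, and with the number as a block it was 0.43 ± 0.11 (adjusted p = 0.0026). Group means of Trp53 ran from 25.4 ± 6.71 CPM in Empty through 27.1 ± 5.9 in G-NHX9-8FA, 29.8 ± 6.45 in G-NHX9-midi-21FGAA, 30 ± 5.34 in G-NHX9-midi, 30.8 ± 10.3 in G-NHX9-21FGAA and 32.3 ± 5.27 in G-NHX9-DDNA to 34.7 ± 13.1 in G-NHX9, and each neighbour in this order lay within the spread of the next. For G-NHX9-DDNA against Empty, also paired, Trp53 went from a log2 fold change of 0.35 ± 0.22 (adjusted p = 0.29) to 0.38 ± 0.11 (adjusted p = 0.012) with the block. Subsets of libraries were tried after the data were seen. On the numbers 1 to 3 alone, Trp53 was called higher than in Empty in G-NHX9 (0.37, adjusted p = 0.0099), G-NHX9-midi (0.49, adjusted p = 0.00062) and G-NHX9-DDNA (0.51, adjusted p = 0.0016), and on libraries of 8 weeks in G-NHX9 (0.85, adjusted p = 0.012). The subset of 8 weeks leaves out Empty 4 and 5, at 33 and 32.4 CPM, and G-NHX9 1, at 24.2 CPM. The numbers are thus not balanced in it, and its larger fold change cannot be set apart from differences between numbers.

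Without the number as a block, the 2 partners of p53 in the feedback loop were not called in any comparison. Mdm2 (ENSMUSG00000020184.14, chromosome 10, 117688875 to 117710758, minus strand) was at 183, 116, 126, 122 and 145 CPM in Empty and at 141, 101, 100, 106 and 104 CPM in G-NHX9. The library numbered 1 was the highest of its group in both, and 4 of the 5 G-NHX9 libraries lay below all of Empty. Mdm2 thus had a log2 fold change of -0.33 ± 0.17 (adjusted p = 0.14), and -0.32 ± 0.10 (adjusted p = 0.013) with the number as a block. Ccng1 (ENSMUSG00000020326.7, chromosome 11, 40748552 to 40755311, minus strand) was at 472, 440, 394, 293 and 314 CPM in Empty and at 367, 340, 333, 237 and 235 CPM in G-NHX9. Here the libraries numbered 4 and 5 were the low ones, the reverse of Trp53. Its log2 fold change of -0.34 ± 0.17 (adjusted p = 0.14) became -0.34 ± 0.09 (adjusted p = 0.0033) with the block, and -0.62 (adjusted p = 0.018) on libraries of 8 weeks. That subset leaves out Empty 4 and 5, which were low in Ccng1, and G-NHX9 1, which was high, so the numbers are not balanced in it. In the other 5 constructs the group means ran from 119 to 154 CPM for Mdm2 and from 368 to 401 CPM for Ccng1, beside 139 ± 27.1 and 383 ± 77.6 CPM in Empty. With the block Mdm2 was also higher in G-NHX9-8FA than in G-NHX9 (0.30 ± 0.10, adjusted p = 0.035). It was higher in G-NHX9-midi-21FGAA than in G-NHX9-midi (0.39 ± 0.10, adjusted p = 0.0021). Ccng1 was higher than in G-NHX9 in G-NHX9-8FA (0.40 ± 0.09, adjusted p = 0.002) and G-NHX9-midi (0.36 ± 0.09, adjusted p = 0.0032). The numbers did not pair these groups over all genes. Trp53inp1 (ENSMUSG00000028211.11, chromosome 4, 11156431 to 11174379, plus strand), an adaptor that promotes p53 phosphorylation and cell death, also passed no test without the block. With the block Trp53inp1 was higher in G-NHX9-8FA than in G-NHX9 (0.44 ± 0.11, adjusted p = 0.0057). It was lower in G-NHX9-midi-21FGAA than in G-NHX9-midi (-0.29 ± 0.11, adjusted p = 0.032). Its group means lay between 109 ± 21.6 CPM in G-NHX9-midi-21FGAA and 148 ± 25.1 CPM in G-NHX9-8FA.

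These 4 genes and Zmat3 differed between library numbers. The span between the means of the numbers was 0.53 to 0.92 on the log2 scale, while the largest log2 fold change against Empty was 0.45 for Trp53, -0.33 for Mdm2, -0.34 for Ccng1, 0.23 for Trp53inp1 and -1.07 for Zmat3. After subtracting the mean of each group, Trp53 deviated by -0.32 on the log2 scale in number 1 and by 0.21 and 0.44 in numbers 4 and 5, and number 5 was above its group mean in 7 of 7 groups. Zmat3 followed with -0.33, -0.34, 0.27 and 0.58 in numbers 2 to 5. Ccng1 went the other way, with 0.31 in number 1 and -0.30 in number 5, and so did Trp53inp1, with 0.35 in number 1 and -0.26 in number 5. Mdm2 stood out in number 1 alone, at 0.39, where it was above the mean in 7 of 7 groups. For Sesn2 the span between numbers was 0.14 and for Aen 0.24, against 0.76 for Trp53 and 0.92 for Zmat3. The labels do not say what a number stands for. Total counts had medians of 45445323 in number 1, 40826479 in number 4 and 37911026 in number 5, with overlapping ranges. Xist, transcribed from the inactive X in female cells, had a median of 534 CPM in number 1, 393 in number 3, 627 in number 4 and 823 in number 5, and the Y-linked Ddx3y had 24.4 CPM in number 1 and 10.2 CPM in number 5. Both were read in every library. The mice were male and female, and whether the sexes were pooled within a library is not stated. The part of sex in the differences between numbers was not tested.

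**Figure D3:**
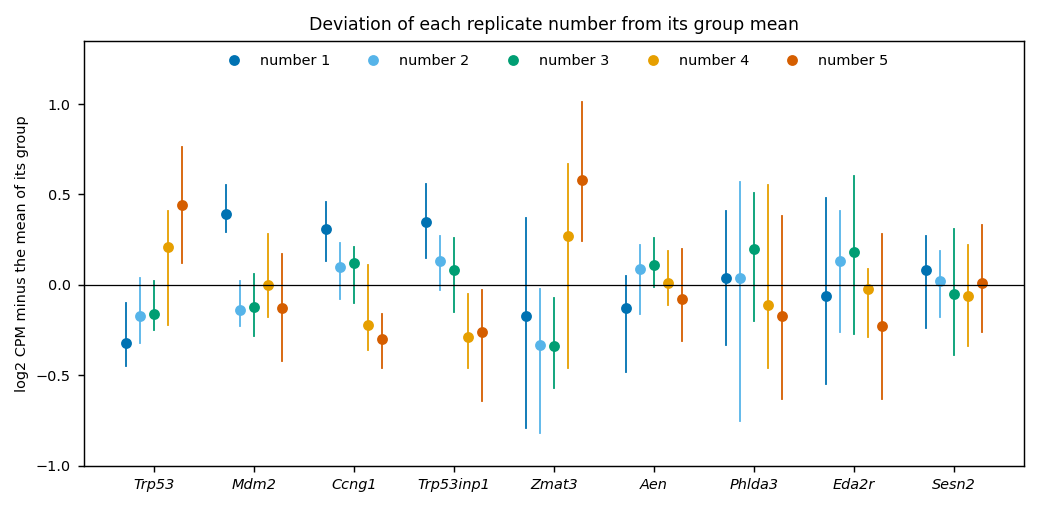
Log2 CPM of each gene minus the mean of its group, by library number. Points are means over the 7 groups and lines run from the lowest to the highest group. Numbers 4 and 5 are above 0 for Trp53 and Zmat3 and below 0 for Ccng1 and Trp53inp1, and Sesn2 stays within 0.08 of 0 on average.

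Aen (ENSMUSG00000030609.18, chromosome 7, 78895854 to 78911209, plus strand), the apoptotic nuclease, was the member called in each of the 6 constructs, with 1.28-fold to 1.5-fold higher levels than in Empty. The Empty libraries were at 22.3, 24.5, 24.1, 19.9 and 17.3 CPM. In G-NHX9-midi Aen was at 33.2, 29, 33.5, 35.1 and 31.8 CPM, and in G-NHX9-8FA at 31, 31.4, 29.8, 28.6 and 29.2 CPM. Neither group overlapped Empty. The log2 fold change was 0.59 ± 0.12 (adjusted p = 0.00017) for G-NHX9-midi and 0.47 ± 0.12 (adjusted p = 0.0031) for G-NHX9-8FA. G-NHX9 was at 25, 31.5, 31.3, 31.6 and 23.4 CPM, with its library 5 inside the range of Empty, and the log2 fold change was 0.40 ± 0.12 (adjusted p = 0.0095). For G-NHX9-21FGAA it was 0.53 ± 0.12 (adjusted p = 0.0013), for G-NHX9-midi-21FGAA 0.39 ± 0.12 (adjusted p = 0.022) and for G-NHX9-DDNA 0.35 ± 0.12 (adjusted p = 0.037), each with 4 of 5 libraries above all of Empty. No test between constructs passed for Aen (adjusted p 0.19 to 0.85). The 2 lowest Empty libraries, 4 and 5, were those from older mice. On libraries of 8 weeks only, the call held for G-NHX9-midi and G-NHX9-21FGAA, whereas for G-NHX9 the log2 fold change was 0.31 (adjusted p = 0.091), for G-NHX9-8FA 0.33 (adjusted p = 0.082), for G-NHX9-midi-21FGAA 0.27 (adjusted p = 0.18) and for G-NHX9-DDNA 0.23 (adjusted p = 0.25). On the numbers 1 to 3 alone only G-NHX9-midi remained called. The call of G-NHX9-DDNA held in 5 of 9 alternative settings.

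Phlda3 (ENSMUSG00000041801.5, chromosome 1, 135766119 to 135769136, plus strand), the AKT inhibitor, fell to 0.507-fold of Empty in G-NHX9 and to 0.524-fold in G-NHX9-midi. The Empty libraries stood at 30.5, 35.3, 39.3, 28.6 and 31.4 CPM. G-NHX9 was at 18.1, 19, 23, 13.2 and 10.4 CPM and G-NHX9-midi at 19.9, 9.81, 14.3, 24.2 and 18.3 CPM. No library of either group reached Empty. The log2 fold change was -0.98 ± 0.22 (adjusted p = 0.00072) for G-NHX9 and -0.93 ± 0.22 (adjusted p = 0.0008) for G-NHX9-midi, and both stayed called in each of 9 alternative settings and 10 fits that left out 1 library. The other constructs had 25.2 ± 8.05 CPM (G-NHX9-21FGAA), 27.6 ± 5.53 (G-NHX9-8FA), 28 ± 5.67 (G-NHX9-midi-21FGAA) and 28.5 ± 5.17 (G-NHX9-DDNA), and passed no test against Empty (adjusted p 0.19 to 0.54). Summed megakaryocyte markers moved with these groups in part: 792 to 1410 CPM in Empty, 376 to 913 in G-NHX9 and 144 to 260 in G-NHX9-midi, but also 306 to 386 CPM in G-NHX9-8FA, where Phlda3 was not called. The mast cell and basophil sum was 542 to 865 CPM in G-NHX9-8FA, as low as in G-NHX9, and the part of either lineage in Phlda3 was not tested.

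Zmat3 (ENSMUSG00000027663.12, chromosome 3, 32334792 to 32366014, minus strand) fell in G-NHX9-midi. It stood at 27.3, 44, 33.6, 72.5 and 79.1 CPM in Empty, a wide spread in which numbers 4 and 5 were the high ones. In G-NHX9-midi it was at 23, 15.3, 19.1, 24.2 and 40.4 CPM, with 4 of 5 libraries below all of Empty. This gave a log2 fold change of -1.07 ± 0.31 (adjusted p = 0.0064). Among libraries of 8 weeks only, which leaves Empty without its 2 highest values, it was -0.53 (adjusted p = 0.25). Against G-NHX9-midi, the G-NHX9-midi-21FGAA libraries were higher in Zmat3 in 5 of 5 same-numbered pairs, with a log2 fold change of 0.68 ± 0.31 (adjusted p = 0.077). It passed with only these groups in the fit (0.71, adjusted p = 0.033) and on numbers 1 to 3 alone (0.78, adjusted p = 0.0024). For G-NHX9 against Empty the log2 fold change of -0.56 ± 0.31 (adjusted p = 0.18) became -0.54 ± 0.20 (adjusted p = 0.034) with the number as a block.

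Eda2r (ENSMUSG00000034457.10, chromosome X, 97333840 to 97377216, minus strand), the TNF receptor family member that signals cell death, gave the largest upward change among the members. Empty was at 2.28, 2.25, 1.64, 2.12 and 1.74 CPM. G-NHX9-21FGAA was at 4.61, 5.16, 4.66, 4.75 and 3.49 CPM, and G-NHX9-DDNA at 2.96, 3.35, 5.39, 2.9 and 3.63 CPM. All 10 of these libraries lay above all of Empty. The log2 fold change was 1.17 ± 0.21 (2.26-fold, adjusted p = 0.00012) for G-NHX9-21FGAA and 0.86 ± 0.21 (1.81-fold, adjusted p = 0.005) for G-NHX9-DDNA. G-NHX9-midi-21FGAA was at 1.78, 3.29, 2.54, 2.6 and 3.2 CPM, 4 of 5 libraries above Empty, with a log2 fold change of 0.42 ± 0.21 (adjusted p = 0.16). At the lower end, G-NHX9 was at 1.17, 1.9, 1.94, 1.31 and 1.01 CPM and G-NHX9-midi at 1.83, 1.08, 1.68, 1.34 and 0.824 CPM. Both overlapped Empty. G-NHX9-midi was called lower than Empty by -0.57 ± 0.21 (adjusted p = 0.034), a call that was lost in 6 of 10 fits that left out 1 library, namely without Empty 1, 2 or 4 or without G-NHX9-midi 2, 4 or 5. It was also lost without TMM (adjusted p = 0.085), without the filter (adjusted p = 0.077), with only the groups compared (adjusted p = 0.059), on libraries of 8 weeks (adjusted p = 0.059) and on numbers 1 to 3 (adjusted p = 0.28). For G-NHX9 the log2 fold change was -0.45 ± 0.21 (adjusted p = 0.11), and G-NHX9-8FA, at 1.59 to 2.21 CPM, was at -0.02 ± 0.21 (adjusted p = 0.95).

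Sesn2 (ENSMUSG00000028893.8, chromosome 4, 132492032 to 132510501, minus strand) was lower than in Empty in the 3 groups with 21FGAA or DDNA mutations. It shares its strand and position with the annotated gene Gm12981, so reads of these genes cannot be told apart where they overlap. Empty was at 51.1, 69.1, 59.2, 70.4 and 54.9 CPM. G-NHX9-21FGAA was at 45.1, 38.9, 41.9, 29.5 and 33.3 CPM, G-NHX9-midi-21FGAA at 34, 40.1, 32.1, 35.2 and 34.3 CPM, and G-NHX9-DDNA at 38.8, 36.4, 28.2, 37.4 and 46.7 CPM. All 15 lay below all of Empty. The log2 fold change was -0.69 ± 0.13 (adjusted p = 0.00027), -0.79 ± 0.13 (adjusted p = 0.00034) and -0.70 ± 0.13 (adjusted p = 0.00084) in this order, and each call stayed in all 9 alternative settings and all 10 fits without 1 library. G-NHX9-8FA was at 77.6, 56.8, 53.2, 67.8 and 69.4 CPM and G-NHX9-midi at 72.9, 61.7, 66.6, 64 and 78.2 CPM, and G-NHX9 had values in between, at 54.6, 51.2, 60.3, 39.7 and 40.7 CPM. None of these 3 groups passed the test against Empty (adjusted p 0.076 to 0.66). Erythroid markers moved in the opposite direction to Sesn2 in these groups. Their sum was 554 to 2090 CPM in G-NHX9-21FGAA, 706 to 1830 in G-NHX9-midi-21FGAA and 616 to 1980 in G-NHX9-DDNA, with 6, 9 and 3 of 11 erythroid genes called higher than in Empty and none lower. Mast cell and basophil genes were higher in 4, 4 and 1 of 8. Eda2r was called higher in G-NHX9-21FGAA and G-NHX9-DDNA among these groups, and the part of the lineages in either gene was not tested.

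The constructs were then compared with one another, which tests each altered construct directly against its parent. Such a difference can also be a return toward Empty where the parent had moved away from it. Without the number as a block the members called were Phlda3, Eda2r and Sesn2. G-NHX9-8FA against G-NHX9 changed 2 of the 9 genes, where 14.5% of all genes were called (6.43% higher and 8.04% lower): Phlda3 was higher by 0.72 ± 0.22 (adjusted p = 0.023) and Sesn2 by 0.40 ± 0.13 (adjusted p = 0.039). Both calls were lost without G-NHX9 4, G-NHX9 5 or G-NHX9-8FA 1. Sesn2 kept its call in 4 of 10 fits that left out 1 library and in 5 of 9 alternative settings. G-NHX9-midi against G-NHX9 changed 1, where 19.7% were called (8.5% higher and 11.2% lower). Sesn2 was higher by 0.48 ± 0.13 (adjusted p = 0.0091), with all 5 G-NHX9-midi libraries above all of G-NHX9, and on numbers 1 to 3 alone by 0.29 (adjusted p = 0.2). Phlda3, low in both, was at 17.3 ± 5.48 and 16.8 ± 4.98 CPM, a log2 difference of 0.05 ± 0.22 (adjusted p = 0.91). Lineage markers moved in both comparisons. Erythroid genes were lower than in G-NHX9 in 11 of 11 for G-NHX9-8FA and 10 of 11 for G-NHX9-midi, megakaryocyte genes in 4 and 6 of 6 and eosinophil genes in 5 and 4 of 5, while neutrophil genes were higher in 5 and 3 of 9, with 2 lower for G-NHX9-midi. Their part in Phlda3 and Sesn2 was not tested.

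The more extensive FG mutations and the homeodomain mutations raised Eda2r over their parent. G-NHX9-21FGAA against G-NHX9 changed 2 of the 9 genes, where 17.2% were called (8.91% higher and 8.34% lower). Eda2r was 3.08-fold higher (log2 fold change 1.62 ± 0.21, adjusted p = 6.8e-07), and Sesn2 was lower by -0.39 ± 0.13 (adjusted p = 0.04), a call lost in 6 of the 10 fits that left out 1 library. This Sesn2 call held in only 3 of 9 alternative settings. Phlda3 was higher in 5 of 5 same-numbered pairs, by 0.59 ± 0.22 (adjusted p = 0.058). This pair of groups was also paired by number, and with the block Phlda3 (adjusted p = 0.04), Mdm2 (0.30 ± 0.10, adjusted p = 0.033) and Ccng1 (0.30 ± 0.09, adjusted p = 0.015) passed as well. G-NHX9-DDNA against G-NHX9 changed 3, where 22.1% were called (10.7% higher and 11.4% lower). Eda2r was 2.48-fold higher (1.31 ± 0.21, adjusted p = 1.9e-05), Phlda3 1.7-fold higher (0.76 ± 0.22, adjusted p = 0.0096), and Sesn2 lower by -0.39 ± 0.13 (adjusted p = 0.029). The Sesn2 call was lost in 6 of 10 fits that left out 1 library and held in 6 of 9 alternative settings. On numbers 1 to 3 alone Phlda3 was at 0.42 (adjusted p = 0.17). With the block Mdm2 (0.39 ± 0.10, adjusted p = 0.005) and Ccng1 (0.30 ± 0.09, adjusted p = 0.012) were called too. In each of these 2 comparisons 9 of 11 erythroid and 7 of 8 mast cell and basophil genes were called higher and none lower, and their part was not tested.

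In the truncated construct the same 21FGAA mutations moved 3 of the 9 genes. G-NHX9-midi-21FGAA against G-NHX9-midi was the comparison with the most calls over all genes, 43.2% (21% higher and 22.2% lower). Sesn2 fell to 0.511-fold (-0.97 ± 0.13, adjusted p = 4e-07), with no overlap between the groups. Eda2r was 1.98-fold higher (0.99 ± 0.21, adjusted p = 0.00028) and Phlda3 1.62-fold higher (0.69 ± 0.22, adjusted p = 0.0097). All 3 calls stayed in every alternative setting and every fit without 1 library. The erythroid sum was 138 to 200 CPM in G-NHX9-midi and 706 to 1830 CPM in G-NHX9-midi-21FGAA, and 11 of 11 erythroid and 8 of 8 mast cell and basophil genes were called higher, so the lineage markers moved with these 3 genes and their part was not tested. Whether the mutations acted differently in the full-length and the truncated protein was tested by an interaction term. By the paper, the mutated full-length protein keeps the N-terminal FG motifs, which the truncated one lacks. The effects compared thus start and end at unlike numbers of FG motifs. It was called for 1 of the 9 genes, where 12.6% of all genes were called (5.2% higher and 7.43% lower). Sesn2 fell less in the full-length protein, by a difference of 0.58 ± 0.19 on the log2 scale (adjusted p = 0.035), a call lost in 6 of 20 fits that left out 1 library and on numbers 1 to 3 alone (0.54, adjusted p = 0.1). For Eda2r the difference was 0.64 ± 0.30 (adjusted p = 0.17) and for Phlda3 -0.10 ± 0.31 (adjusted p = 0.88).

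Beyond these members, 32 other p53 target genes were counted, all of which were tested. The higher and lower calls against Empty were 5 and 3 for G-NHX9, 7 and 2 for G-NHX9-8FA, 10 and 3 for G-NHX9-midi, 4 and 6 for G-NHX9-21FGAA, 2 and 2 for G-NHX9-midi-21FGAA and 1 and 4 for G-NHX9-DDNA. Over all genes 16.9% were higher and 15.2% lower for G-NHX9, 13.4% and 13.2% for G-NHX9-8FA, 20.5% and 20% for G-NHX9-midi, 14.7% and 12.5% for G-NHX9-21FGAA, 9.59% and 7.32% for G-NHX9-midi-21FGAA and 9.85% and 7.35% for G-NHX9-DDNA. The balance depended on scaling: without TMM, where the median of all genes against Empty lay at 0.08 to 0.19, the counts were 6 and 2 for G-NHX9-21FGAA, 7 and 1 for G-NHX9-midi-21FGAA and 6 and 1 for G-NHX9-DDNA. The median of the list lay between -0.13 and 0.15 (log2) in the 6 comparisons, so the list as a whole did not move one way. With the number as a block the 4 calls in G-NHX9-midi-21FGAA became 7 and the 5 in G-NHX9-DDNA became 8, while the shares over all genes above are without it. Cdkn1a, the p21 inhibitor of cyclin-dependent kinases and the best known p53 target, was at 182 ± 41.7 CPM in Empty, and its means in the constructs ran from 128 ± 23.1 CPM in G-NHX9-21FGAA to 165 ± 18.1 in G-NHX9-8FA. It was called only in G-NHX9-21FGAA (-0.50 ± 0.17, adjusted p = 0.023). Its annotation overlaps a gene on the other strand, and the strand setting of the counting is not given in the sources used here.

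The single targets named next were picked mainly for the largest called fold changes, so they exceed the list median by choice. Sulf2, a heparan sulfate sulfatase, fell from 68.3 ± 8.01 CPM in Empty to 12.1 ± 3.34 in G-NHX9 (log2 fold change -2.50 ± 0.22, adjusted p = 1.9e-10), 18 ± 5.98 in G-NHX9-8FA and 11.7 ± 3.22 in G-NHX9-midi, while it was at 80.5 ± 25.2 CPM in G-NHX9-midi-21FGAA, 2.78 ± 0.23 above G-NHX9-midi on the log2 scale (adjusted p = 1.1e-11). Sulf2 overlaps Ncoa3 on the other strand. Ephx1, an epoxide hydrolase, fell by 1.47 in G-NHX9 (35.6 ± 7.67 to 12.8 ± 4.02 CPM, adjusted p = 2.8e-05) and by 1.46 in G-NHX9-midi (adjusted p = 1.8e-05), as Phlda3 did, and by 1.00 in G-NHX9-21FGAA (adjusted p = 0.003), where Phlda3 was not called. Ephx1 shares its strand with the annotated gene Gm36961. Fas, the death receptor, rose in G-NHX9-8FA from 31.2 ± 3.39 to 61.9 ± 14.2 CPM (0.99 ± 0.15, adjusted p = 9.8e-06) and, less, in G-NHX9-midi (0.47 ± 0.15, adjusted p = 0.014). It fell in G-NHX9 (-0.76 ± 0.16, adjusted p = 0.00027), G-NHX9-21FGAA (-0.86 ± 0.16, adjusted p = 0.00013), G-NHX9-midi-21FGAA (-0.82 ± 0.15, adjusted p = 0.00081) and G-NHX9-DDNA (-0.82 ± 0.16, adjusted p = 0.00084). Sesn1, the sestrin related to Sesn2, was higher in G-NHX9 (0.73 ± 0.09, adjusted p = 4.4e-08). Gadd45a, a stress sensor of arrest and repair, rose in G-NHX9-8FA (1.10 ± 0.35, adjusted p = 0.019) and G-NHX9-midi (1.07 ± 0.35, adjusted p = 0.015). Between G-NHX9-midi-21FGAA and G-NHX9-midi 4 targets were higher and 12 lower, against 21% and 22.2% of all genes, among them Gadd45a (-1.76 ± 0.36, adjusted p = 0.00017) and Trp53cor1, the long noncoding RNA next to Cdkn1a (-1.36 ± 0.19, adjusted p = 4.4e-07).

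Of 18 regulators and relatives of p53, 16 were tested. Called higher and lower against Empty were 7 and 2 in G-NHX9, 4 and 0 in G-NHX9-8FA (with 2 lower at an unadjusted p below 0.05, and 4 calls by DESeq2), 7 and 1 in G-NHX9-midi, 6 and 1 in G-NHX9-21FGAA, 3 and 3 in G-NHX9-midi-21FGAA and 2 and 1 in G-NHX9-DDNA. The shares over all genes are those given beside the target genes, from 9.59% higher and 7.32% lower in G-NHX9-midi-21FGAA to 20.5% and 20% in G-NHX9-midi. Without TMM the counts in G-NHX9-midi-21FGAA were 6 and 1. Mdm4, the relative of Mdm2 that blocks p53 at its targets, was at 137 ± 7.11 CPM in Empty and passed no test against it (adjusted p 0.15 to 0.79). It was lower in G-NHX9-midi-21FGAA than in G-NHX9-midi (-0.48 ± 0.12, adjusted p = 0.0021). Cdkn2a, whose locus encodes the Mdm2 antagonist p19Arf beside the kinase inhibitor p16Ink4a, fell in G-NHX9 from 5.89 ± 1.2 to 3.81 ± 0.483 CPM (-0.63 ± 0.17, adjusted p = 0.0036). It rose in G-NHX9-21FGAA to 9.33 ± 1.15 CPM (0.66 ± 0.16, adjusted p = 0.0029) and in G-NHX9-midi-21FGAA to 9.63 ± 1.62 CPM (0.71 ± 0.16, adjusted p = 0.0037). Reads of these transcripts were counted together. Chek1, the checkpoint kinase, was higher in G-NHX9 (0.88 ± 0.20, adjusted p = 0.0011), G-NHX9-midi (0.56 ± 0.20, adjusted p = 0.029), G-NHX9-21FGAA (1.01 ± 0.20, adjusted p = 0.00047), G-NHX9-midi-21FGAA (1.00 ± 0.20, adjusted p = 0.0015) and G-NHX9-DDNA (1.02 ± 0.20, adjusted p = 0.0013). Rpl5, a ribosomal protein that binds Mdm2, was higher in G-NHX9 (0.38 ± 0.11, adjusted p = 0.0074), G-NHX9-8FA (0.64 ± 0.11, adjusted p = 3.6e-05) and G-NHX9-midi (0.78 ± 0.11, adjusted p = 8.1e-07) and lower in G-NHX9-midi-21FGAA (-0.36 ± 0.11, adjusted p = 0.024). Ribosomal protein genes have near-identical pseudogenes and Rpl5 holds small RNA genes, so its count is uncertain.

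A list of 12 cell cycle genes that are repressed when p53 acts through p21 was the list whose members were called in 1 direction. Against Empty 11 were called higher in G-NHX9, 11 in G-NHX9-21FGAA, 9 in G-NHX9-midi-21FGAA and 11 in G-NHX9-DDNA, and none lower, where 16.9%, 14.7%, 9.59% and 9.85% of all genes were called higher. The list medians were 0.72, 0.78, 0.65 and 0.85 on the log2 scale. Cdc20, an activator of the anaphase-promoting complex, was up by 0.99 ± 0.21 in G-NHX9 (adjusted p = 0.00037) and by 1.00 ± 0.21 in G-NHX9-DDNA (adjusted p = 0.0017). In G-NHX9-midi 2 of 12 were higher, near the share of all genes (20.5%), and in G-NHX9-8FA edgeR called 0, with 1 at an unadjusted p below 0.05 and 0 by DESeq2. Directly compared, 9 of 12 were lower in G-NHX9-8FA than in G-NHX9 (8.04% of all genes), among them Plk1 (-0.78 ± 0.27, adjusted p = 0.045) and Birc5 (-0.74 ± 0.23, adjusted p = 0.029), and 5 of 12 were lower in G-NHX9-midi (11.2% of all genes). Against G-NHX9-midi, 7 of 12 were higher in G-NHX9-midi-21FGAA (21% of all genes). The summed level was 354 to 674 CPM in Empty, 688 to 917 in G-NHX9, 391 to 731 in G-NHX9-8FA and 713 to 980 in G-NHX9-DDNA. Dividing cells in general express these genes. Of 9 markers of stem and progenitor cells 5, 5, 2 and 4 were called higher than in Empty in G-NHX9, G-NHX9-21FGAA, G-NHX9-midi-21FGAA and G-NHX9-DDNA, and 3 and 4 in G-NHX9-8FA and G-NHX9-midi. Called lower were 1, 0, 0 and 1 in the same order, and 2 and 3 in G-NHX9-8FA and G-NHX9-midi. The markers include Flt3 and Meis1, which the paper reports as raised by the fusion. Summed over the 9 markers the level was 300 to 437 CPM in Empty, 618 to 787 in G-NHX9, 590 to 881 in G-NHX9-21FGAA, 348 to 895 in G-NHX9-midi-21FGAA and 355 to 602 in G-NHX9-DDNA, against 332 to 466 in G-NHX9-8FA and 293 to 427 in G-NHX9-midi. Of 4 early granule genes 3, 4, 0 and 4 were called higher in the same order, but so were 3 in G-NHX9-8FA and 2 in G-NHX9-midi. Their part in the cell cycle counts was not tested. The counts were less stable than the medians. On numbers 1 to 3 alone 4 were called in G-NHX9, 7 in G-NHX9-21FGAA, 10 in G-NHX9-DDNA and 0 in G-NHX9-midi-21FGAA (11 at an unadjusted p below 0.05), with medians of 0.61, 0.72, 0.99 and 0.65. Without Empty 2 or G-NHX9 5 the count for G-NHX9 was 6, without Empty 2 that for G-NHX9-midi-21FGAA was 5, and on libraries of 8 weeks the latter was 4. For G-NHX9-8FA against G-NHX9 it was 3 with only these groups in the fit and 2 without G-NHX9 2 or 5 or G-NHX9-8FA 1, 2 or 3, and for G-NHX9-midi against G-NHX9 it was 1 to 10 over the fits without 1 library. The latter was 1 with only its groups in the fit and 0 on numbers 1 to 3 alone (2 at an unadjusted p below 0.05). For G-NHX9-midi-21FGAA against G-NHX9-midi the count was 2 on numbers 1 to 3 alone.

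**Figure D4:**
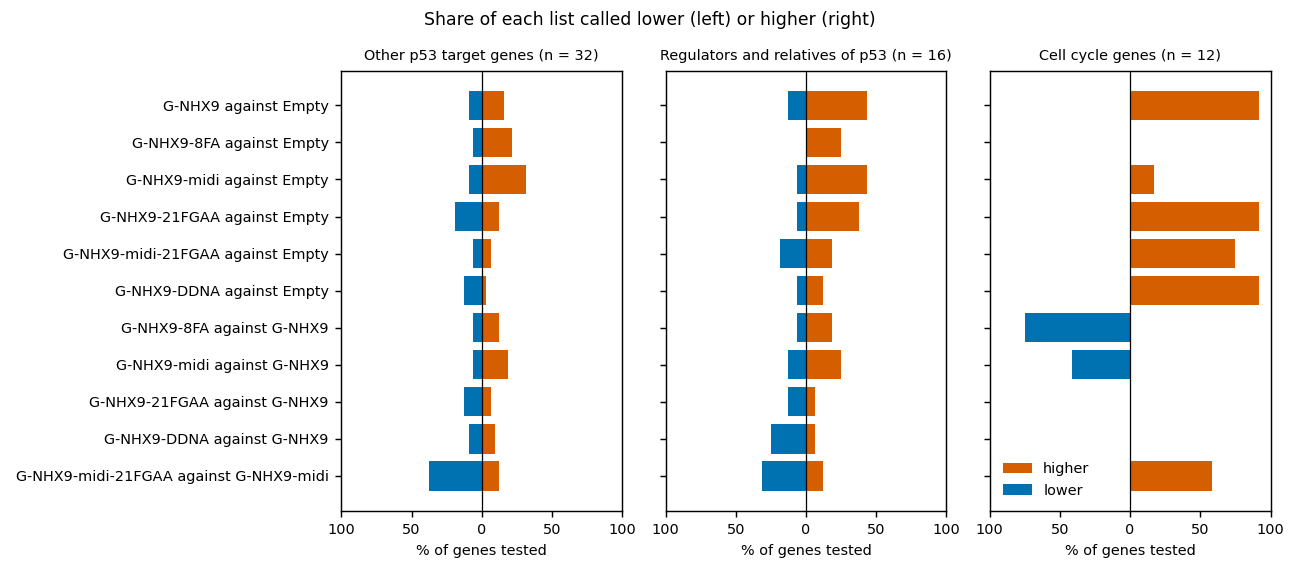
Share of the genes tested in each list that was called lower (bars to the left) or higher (bars to the right) by edgeR, for the 6 comparisons with Empty and the 5 between constructs. The cell cycle list reaches 11 of 12 genes higher in 3 comparisons with Empty, while the other p53 targets are called in both directions in each comparison.

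Across the 35 libraries the members did not follow Trp53 as a set. After removing group means, Pearson's r with Trp53 was -0.92 for Ccng1, -0.86 for Trp53inp1, -0.58 for Phlda3 and -0.42 for Mdm2, and 0.63 for Zmat3. Ccng1 and Trp53inp1 rose and fell together (r = 0.84). Aen (r = -0.13) and Sesn2 (r = -0.20) showed little relation to Trp53. These are descriptions over libraries that share numbers, depth and culture, and no test is given. The tested genes most like each member in log2 CPM over the 35 libraries were Tcof1 and Upf1 for Trp53 (r = 0.925 and 0.915), BC003331 and Atg3 for Ccng1 (0.913 and 0.909), Dopey2 and Foxj2 for Zmat3 (0.942 and 0.939), and Pcmtd1 and Usp33 for Trp53inp1 (0.923 and 0.904). For Mdm2 they were Tmem251 and Rgs1 (0.852 and 0.831), for Phlda3 Ephx1 and Ppfibp2 (0.93 and 0.905), for Aen Fbxo9 and Wdr55 (0.853 and 0.852), for Eda2r Trpc6 and Arpp21 (0.883 and 0.868), and for Sesn2 Cox6a2 and Nfe2l1 (0.943 and 0.935). With group means removed, r fell to 0.583 for Trpc6 with Eda2r and stayed at 0.929 for Tcof1 with Trp53. So the likeness of the first pair rested more on differences between groups and that of the second on differences between libraries within them.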

How the data were processed

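RNA was sequenced from TruSeq Stranded Total RNA libraries. Per the labels, the submitters' processing notes name STAR 2.7.0d, HTSeq 0.11.2, DESeq2 and the mm10 build, with no role or order; annotation and strand setting are not given in the sources used here. The authors deposited whole-number read counts for 49671 genes in 35 libraries, without normalization.

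Counts were scaled by TMM and tested in edgeR 4.0.16 (R 4.3.3) by quasi-likelihood with a mean per group over all 35 libraries. A filter by group (filterByExpr) left 17166 genes with 99.96% of counts; TMM factors were 0.899 to 1.11. P-values were adjusted by Benjamini-Hochberg within each comparison. No libraries of a group were duplicates: the lowest chi-square per degree of freedom between 2 of them was 24.7. Levels per kb use exon lengths of GENCODE M21, in which 99.3% of identifiers were found; positions come from it too. The scripts were tested on simulated data.

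The 9 members and the 3 lists were chosen with earlier results of these data known. Named were the members, Cdkn1a, Mdm4 and Cdkn2a, and from each list and comparison up to 2 genes called higher and 2 called lower with the largest fold change; part of these is printed, and Fas, Chek1, Rpl5 and Ephx1 are given in further comparisons, chosen after their values were seen. Most like were the 2 tested genes of highest r. Cop1 was found as Rfwd2.

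The labels number libraries 1 to 5. Deviations from group means correlated by 0.232 on average between same-numbered libraries of other groups and by -0.057 otherwise. All 5 same-numbered pairs exceeded 0.1 in 5 of 11 comparisons (G-NHX9, G-NHX9-midi-21FGAA and G-NHX9-DDNA against Empty, G-NHX9-21FGAA and G-NHX9-DDNA against G-NHX9), in which the number was taken to pair the libraries. The study isolated cells in parallel for all viruses. Alternatives were no TMM, RLE factors, no filter, a mean of at least 1 CPM, the number as a block, only the groups compared, DESeq2 1.42.0 and each library left out in turn; libraries of 8 weeks only and numbers 1 to 3 only were added after the data were seen.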

Additional observations from a re-analysis of the deposited data

Results flagged for a closer look

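Mdm2 in G-NHX9 replicate 1 stood apart from the rest of its group, at 141 CPM beside 100 to 106 CPM in the other 4 libraries, a gap of 0.865 of the range of the group. This was the 1 set flagged among 63 sets of a gene and a group. Chance flags about 1 in 20. Mdm2 was above its group mean in the libraries numbered 1 of 7 of 7 groups, and this G-NHX9 library came from mice of 11 weeks. Its part in the level was not tested.

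The change of Sesn2 with the 21FGAA mutations was called as different between the full-length and the truncated construct. The interaction term was 0.58 ± 0.19 on the log2 scale (edgeR, adjusted p = 0.035): Sesn2 changed by -0.39 ± 0.13 in the full-length and by -0.97 ± 0.13 in the truncated construct. The call held in 14 of 20 fits that left out 1 library. It was lost without the filter (edgeR, adjusted p = 0.052) and on numbers 1 to 3 alone (adjusted p = 0.1). The parents differed too, with 49.3 ± 8.95 CPM in G-NHX9 and 68.7 ± 6.78 CPM in G-NHX9-midi, whereas the mutants ended at 37.8 ± 6.36 and 35.1 ± 2.99 CPM.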

How the results depend on the processing

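Of 27 called pairs of a member and a comparison, 13 kept the call in every alternative, and no called value turned its sign in any of 523 refits. With the number as a replicate block the count of members called rose from 2 to 6 for G-NHX9 against Empty, from 1 to 2 for G-NHX9-8FA against Empty, from 2 to 6 for G-NHX9-8FA, from 1 to 2 for G-NHX9-midi, from 2 to 5 for G-NHX9-21FGAA and from 3 to 5 for G-NHX9-DDNA, each against G-NHX9, and from 3 to 6 for G-NHX9-midi-21FGAA against G-NHX9-midi, and the block ended no call. The count also rose with the block from 4 to 5 for G-NHX9-midi and from 3 to 4 for G-NHX9-DDNA, each against Empty. Calls over all genes rose with the block too for G-NHX9-8FA against G-NHX9, from 2484 to 3952. The blocked counts thus do not set the members apart from all genes. Where the number did not pair the libraries over all genes, such a rise is no sign of a larger fold change. Single members still differed by number there: Ccng1 and Trp53inp1 were above their group mean in number 1 of 7 of 7 groups. For G-NHX9-8FA against G-NHX9, Ccng1 was at 0.40 ± 0.17 without the block and 0.40 ± 0.09 with it. Trp53inp1 was at 0.43 ± 0.19 and 0.44 ± 0.11. For G-NHX9-8FA against G-NHX9 the count was 1 without TMM, without the filter and with only the groups compared, for G-NHX9-21FGAA against G-NHX9 it was 1 without the filter and with only the groups compared, and for the interaction it was 0 without the filter (unadjusted p below 0.05 for 2 members, 1 called by DESeq2). On libraries of 8 weeks the count was 0 for G-NHX9-8FA, 2 for G-NHX9-midi and 1 for G-NHX9-midi-21FGAA against Empty, and 1 for G-NHX9-21FGAA against G-NHX9. On numbers 1 to 3 it was 0 for G-NHX9-8FA and 1 for G-NHX9-midi-21FGAA against Empty, 0 for G-NHX9-8FA and for G-NHX9-midi against G-NHX9, and 0 for the interaction, with 1, 4, 1 and 2 members at an unadjusted p below 0.05 where it was 0 (1 for G-NHX9-8FA on 8 weeks) and 1, 2, 1 and 1 called by DESeq2 on all libraries. These subsets hold fewer libraries, and that of 8 weeks lacks Empty 4 and 5 and G-NHX9 1, so the numbers are not balanced in it. Leaving out 1 library gave 1 to 2 for G-NHX9-8FA against Empty (2 without Empty 1), 1 to 2 for G-NHX9-midi-21FGAA against Empty, 0 to 2 for G-NHX9-8FA against G-NHX9 (0 without G-NHX9 4 or 5 or G-NHX9-8FA 1, each with 2 at an unadjusted p below 0.05, and 1 without G-NHX9 2 or G-NHX9-8FA 4 or 5), 1 to 2 for G-NHX9-21FGAA against G-NHX9 (1 without G-NHX9 1 or 2 or G-NHX9-21FGAA 2) and 0 to 1 for the interaction (0 without G-NHX9 4 or 5, G-NHX9-21FGAA 1 or 3 or G-NHX9-midi 1 or 5, with 1 to 3 at an unadjusted p below 0.05). The Aen call of G-NHX9-midi-21FGAA was lost without Empty 4, Empty 5 or G-NHX9-midi-21FGAA 3 and that of G-NHX9-DDNA without Empty 4, Empty 5, G-NHX9-DDNA 2 or 3. The Aen call of G-NHX9-DDNA was also lost without the filter (adjusted p = 0.069) and with only the groups compared (adjusted p = 0.075). The cause of these losses was not tested. Without TMM the median of all genes against Empty moved to between 0.08 and 0.19, and the share of higher among all calls, 50.4% to 57.3% over the 6 comparisons, was then 58.5% to 83.1%. Calls over all genes moved by more than 1.5 times for G-NHX9-8FA against G-NHX9 (2484; 3952 with the block, 1559 with only the groups compared, 1556 without G-NHX9 5), the interaction (2167; 3425 with the block) and G-NHX9-DDNA against Empty (2952; 1918 without G-NHX9-DDNA 3, 1942 on libraries of 8 weeks). On numbers 1 to 3 they were 2971 for G-NHX9-8FA, 2602 for G-NHX9-21FGAA and 1378 for G-NHX9-midi-21FGAA against Empty, the last 1475 on libraries of 8 weeks. Of 714 list counts under alternatives 112 moved by more than 1.5 times. Depth limits mainly Eda2r, with 36 reads in its lowest library.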
